A study of Homo sapiens with 6 samples.

Results

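Antisense RNA genes are transcribed from the DNA strand opposite a protein-coding gene, and by convention their symbols take the name of that gene followed by -AS and a digit. The members described here are the 159 genes of this form whose mean normalised read count over 6 libraries was at least 50. They were selected on the normalised read count, as measured in all 6 libraries, from 1826 symbols of that form, 1203 of them with a read in any library, in a table of 62700 genes. Because these values chose them, their abundance is a description and not a result. At the threshold, FAM169A-AS1 and SGMS1-AS1 lay just inside, with means of 50.5 and 51.1, and MNX1-AS1 and GLIPR1-AS1 lay just outside, with 48.7 and 48.7. Each member is given beside its sense gene, the gene named in its symbol.

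The study measured polyadenylated RNA of TCam-2, a human cell line derived from a testicular seminoma, in 3 groups of 2 libraries. WT cells were not transduced, GFP cells carried a FLAG-tagged green fluorescent protein, and RBMXL3 cells carried FLAG-tagged RBMXL3, an RNA-binding protein related to RBMX. WT and GFP both served as controls for RBMXL3 overexpression. The labels do not say whether the libraries of a group came from separate cultures, so p-values measure only the spread between these samples. They give no promoter for the transgenes and no batch, so a difference in preparation and the group cannot be told apart.

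Recovered depth was between 17685680 and 21023355 reads in the RBMXL3 libraries and between 23080795 and 29318007 in the controls. RBMXL3 had 0 reads in the 4 control libraries and 84 and 68 reads in the RBMXL3 libraries. The 9 seminoma markers were all present in every library, from 1411 normalised reads for KIT to 41233 for POU5F1. By limma, KIT and LIN28A were called lower in RBMXL3 against both controls. Against WT alone, POU5F1 was called higher (log2 change 0.46) and PRDM1 lower (-0.41). KIT averaged 2490 in WT, 1864 in GFP and 1420 in RBMXL3. Of 3 embryonal carcinoma markers DNMT3L averaged 831, 1385 and 1073, GDF3 59.5, 86.5 and 112, and SOX2 23.2, 13.7 and 33.2, and none was called in one direction against both controls. Of 3 leukocyte markers, CD3E was at 0, PTPRC had at most 1.06 normalised reads and CD14 at most 23.5, and of 3 Sertoli cell markers GATA1 was at 0, INHA had at most 20.3 and AMH between 93.3 and 187. Of 4 fibroblast markers, COL3A1 averaged 119 in WT, 210 in GFP and 497 in RBMXL3, LUM averaged 72.5, 155 and 423, and COL1A1 averaged 220, 360 and 403, while DCN was at 1.69 or less throughout. COL3A1 and LUM were called higher in RBMXL3 against both controls, and COL1A1 against WT alone. The part of these marker differences in the results below was not tested. In bulk RNA, fewer cells of a kind and less RNA per cell cannot be told apart.

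Antisense RNAs can act on their neighbour by transcription through it, by pairing with its RNA, or not at all. Many start at the promoter of the sense gene and run away from it, and many nuclear antisense transcripts are short-lived because the RNA exosome degrades them. Some act elsewhere in the cell as long noncoding RNAs: OIP5-AS1 (also called Cyrano) carries a conserved site for miR-7 and is known to promote decay of that microRNA. A library that keeps strand information is needed to tell an antisense read from a sense read. The kit named in the labels keeps it, and the counting step and its strand setting are not given in the sources used here.

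The counts themselves showed that counting followed the strand. Among 22 genes with at least 90% of their exon bases under exons of genes on the opposite strand, the median number of reads for the abundance that the transcript table gives was 1.6 times that of all genes. Among 177 genes covered to the same extent by genes on the same strand it was 0, and 91.0% of these had less than 0.1 of the usual reads, against 4.55% of the genes covered on the opposite strand. This check was chosen after the data were seen.

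The miR-7 site is shown for OIP5-AS1, the most abundant member that rose. It lies at chr15:41300573-41300599 on the plus strand (GRCh38, GENCODE 29), and its capitals pair with the microRNA. In the microRNA (RefSeq, GRCh38.p14) the capitals are the seed, bases 2 to 8, and 14 bases at its 3′ end pair as well. Of 10 annotated OIP5-AS1 transcripts, 1 holds this long site. The libraries hold polyadenylated RNA and give no value for the microRNA itself.
hsa-miR-7-5p: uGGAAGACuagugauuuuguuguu
OIP5-AS1: gAACAACAAAATCACcaatGTCTTCCa

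The members were mostly of low to moderate abundance. The median mean was 103 normalised reads, 78 members were under 100, 41 were at 200 or more, and 3 were above 1000. FGD5-AS1 was the most abundant, with 4121 and 3722 normalised reads in WT cells, 3362 and 3827 in GFP cells and 3512 and 3278 in RBMXL3 cells. Its RBMXL3 libraries overlapped those of GFP and lay below those of WT. Its adjusted p-values in limma were 0.624 against GFP and 0.151 against WT. OIP5-AS1 followed with a mean of 2596, then C10orf95-AS1 with 1331, TP73-AS1 with 983, TPT1-AS1 with 744 and OTUD6B-AS1 with 622. Of these 6, OIP5-AS1 had both RBMXL3 libraries outside the range of the controls and the other five overlapped them.

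Set against their sense genes per kilobase of exon, 54 of 156 members with coordinates for both genes were above the sense gene and 102 were below, with a median ratio of 0.409. FGD5-AS1 was at 709 normalised reads per kilobase and FGD5, a guanine nucleotide exchange factor, at 76.4. TPT1-AS1 was at 71.6 and TPT1, which encodes the translationally controlled tumour protein, at 4987. In reads, 41 members exceeded their sense gene, and the median was 17.6% of sense reads. The highest ratios belonged to A1BG-AS1, GPRC5D-AS1 and ASB16-AS1, whose sense genes had at most 2.14 normalised reads in any library. The count of A1BG is uncertain, since its transcripts summed to between 7.37 and 13.6 TPM in the same libraries. KCNMB2-AS1 and LHFPL3-AS2 had sense genes at 0 reads in all 6 libraries.

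By position (GENCODE 29, GRCh38), 121 members had under 50% of their exon length under exons of the sense gene, and 8 had at least 50%. Another 19 overlapped the body of the sense gene without sharing exon bases, and 9 were head-to-head, with starts within 2000 bases and no overlap. FAM131B-AS2 was on the same strand as FAM131B in that release, and SVIL-AS1 had no coordinates there. The median exon length of the members was 3010.5 bases, from 456 to 37852. GENCODE 29 lists 120 of them as antisense, 20 as processed transcripts, 14 as lincRNA and 5 as other types.

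Most members did not pass the test between RBMXL3 and the controls. A gene is said to have risen or fallen where limma, fitted over all 14292 genes tested, gave a Benjamini-Hochberg adjusted p under 0.05. All 159 members were tested. Log2 changes are of the deposited value divided by 23.88 plus a pseudocount of 1, a scale that understates the change of low genes. Against GFP, 9 members rose and 11 fell, 12.6% of members, where 20.9% of all genes tested were called, 10.5% higher and 10.4% lower. Against WT, 11 rose and 16 fell, 17.0% of members, where 29.9% of all genes were called, 14.6% higher and 15.3% lower. Against both controls 4 rose and 7 fell, 6.92% of members, where 13.7% of all genes were called, 6.88% higher and 6.86% lower. Among the 11082 tested genes whose mean lay in the range of the members, 21.6%, 30.9% and 14.3% were called in the same order, and 3.87% between GFP and WT. The median mean of that set was 563 normalised reads, against 103 in the members, so it is not matched to them in abundance.

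The 2 comparisons of RBMXL3 share the RBMXL3 libraries, so a member called in both is not 2 independent calls. Called against neither control were 123 members, and 135 had an absolute log2 change under 0.5 against both. The matching counts of all genes are not given here. For each comparison alone, 145 members were under 0.5 against GFP and 143 against WT. Of the 14292 genes tested, 12558 and 11896 were under 0.5 in the same order. The median log2 change of the members was 0.00 against GFP and 0.03 against WT, and over all genes tested it was 0.00 and -0.01. Both RBMXL3 libraries lay above all 4 controls in 27 members and below them in 27, 17.0% each, where 22.5% and 23.6% of all genes did so. The count against both controls was 5 without WT replicate 1, 5 without RBMXL3 replicate 1 and 5 without RBMXL3 replicate 2, with limma pooling the spread for the group left with 1 library. With DESeq2 it was 6, with edgeR 10, and with the replicate number as a block in limma 7.

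**Figure D1:**
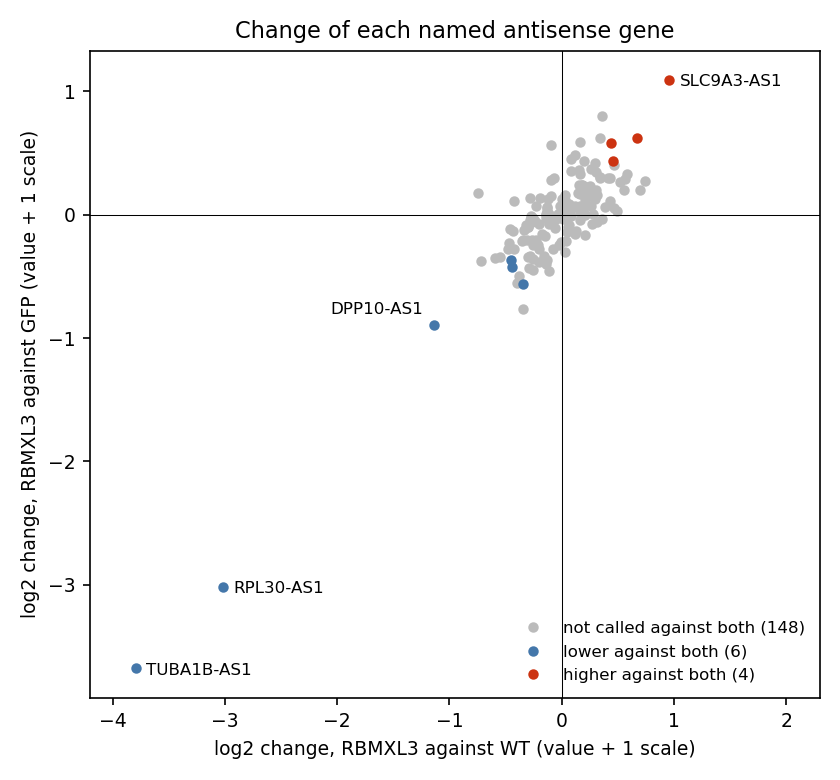
Log2 change of 158 members against WT (horizontal axis) and against GFP (vertical axis), on the scale of the rescaled value plus 1, with one point per gene coloured by its call against both controls. Most points lie near 0, and TUBA1B-AS1 and RPL30-AS1 lie apart at changes of -3.68 and -3.02 against GFP.

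TUBA1B-AS1 and RPL30-AS1 had few reads in the RBMXL3 libraries and the largest falls. Genes were tested where the deposited value divided by 23.88 was at least 1 in at least 2 libraries. Neither gene reached that value in an RBMXL3 library, so both entered the test, and the set of members, through the controls. The direction of their calls was thus fixed by the selection, though both were also called with no filter on low values. Both had under 1% of the reads of a very abundant sense gene, and how many sense reads each library placed on the wrong strand was not tested, so the part of such reads in their counts is unknown. TUBA1B-AS1 (ENSG00000258017.3, chromosome 12, 49127782 to 49147869, plus strand) runs across TUBA1B, which encodes an alpha-tubulin, and 80.2% of its exon length is under exons of that gene. It had 610 and 487 normalised reads in WT cells, 434 and 577 in GFP cells and 20.6 and 13.9 in RBMXL3 cells. The RBMXL3 libraries held 29 reads in all, 3.38% of the GFP level after normalisation, with a 95% exact interval of 2.25% to 4.89% that covers counting error only. Its log2 changes were -3.68 against GFP and -3.80 against WT (SE 0.17 each; limma adjusted p 2.17e-07 and 1.59e-07). In the transcript table it was at 54.6 and 48.7 TPM in WT cells, 44.3 and 54.2 in GFP cells and 2.59 and 2.04 in RBMXL3 cells, so that the groups did not overlap there either.

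RPL30-AS1 (ENSG00000245970.2) lies opposite RPL30, which encodes a protein of the large ribosomal subunit, and shares 43.8% of its exon length with it. It had 184 and 201 normalised reads in WT cells, 167 and 219 in GFP cells and 1.29 and 4.28 in RBMXL3 cells, which stand for 1 and 4 reads. The RBMXL3 level was 1.53% of that in GFP, with an exact interval of 0.492% to 3.59%. Its log2 change was -3.02 against each control (SE 0.17; limma adjusted p 6.74e-07 and 6.62e-07). The transcripts that GENCODE 29 assigns to it summed to at most 0.0452 TPM in any library, so the transcript table bears on this gene too little to compare.

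DPP10-AS1 also fell to well under the control level. DPP10-AS1 (ENSG00000235026.8, chromosome 2, 115130935 to 115161343, minus strand) lies inside DPP10, which encodes an auxiliary subunit of potassium channels, and shares no exon bases with it. It had 102 and 108 normalised reads in WT cells, 80.4 and 89.0 in GFP cells and 30.9 and 38.5 in RBMXL3 cells. Its log2 changes were -0.89 against GFP and -1.14 against WT (SE 0.16 each; limma adjusted p 0.0028 and 0.000394). In TPM it was at 8.77 and 8.99 in WT cells, 5.94 and 7.30 in GFP cells and 3.16 and 3.30 in RBMXL3 cells. The RBMXL3 libraries were the lowest on both scales. The RBMXL3 mean of 34.7 normalised reads was under the threshold of 50, so DPP10-AS1 became a member through the controls. That selection favours a lower value in RBMXL3 than in the controls. DPP10 itself had a log2 change of -0.08 against GFP (adjusted p 0.765) and of -0.46 against WT (adjusted p 0.0382).

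A set of 3 falls was smaller. SVIL-AS1, named for the actin-binding protein supervillin, had 366 and 301 normalised reads in WT cells, 320 and 334 in GFP cells and 233 and 243 in RBMXL3 cells, with log2 changes of -0.42 and -0.44. ENTPD1-AS1, opposite the ectonucleotidase gene ENTPD1, had 553 and 576, 553 and 509, and 400 and 411 in the same order, with changes of -0.37 and -0.45. MAPKAPK5-AS1, at the start of a protein kinase gene and named here after its values were seen, had 484 and 506, 594 and 563, and 415 and 356, with changes of -0.56 and -0.35. In all 3 the RBMXL3 libraries lay below the controls, and the sense genes SVIL, ENTPD1 and MAPKAPK5 were not called. With the replicate number as a block, limma did not call SVIL-AS1 against GFP (adjusted p 0.0624), ENTPD1-AS1 against GFP (0.0634) or MAPKAPK5-AS1 against WT (0.0666). DESeq2 did not call them in the same comparisons (adjusted p 0.0813, 0.0699 and 0.0913), and edgeR did not call MAPKAPK5-AS1 against WT (0.0516).

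These 3 calls lay close to the threshold, and several fits with fewer libraries did not call them at a similar change. SVIL-AS1 was not called against GFP without GFP replicate 2 (-0.39) or without either RBMXL3 replicate (-0.39 and -0.45), and not against WT without WT replicate 1 (-0.31) or without either RBMXL3 replicate (-0.42 and -0.47). ENTPD1-AS1 was not called against WT without WT replicate 1 (-0.48), WT replicate 2 (-0.43), RBMXL3 replicate 1 (-0.44) or RBMXL3 replicate 2 (-0.47), and not against GFP without GFP replicate 1 (-0.31) or without either WT or RBMXL3 replicate (from -0.35 to -0.39). MAPKAPK5-AS1 was not called against WT without WT replicate 1 (-0.38), WT replicate 2 (-0.32), RBMXL3 replicate 1 (-0.45) or RBMXL3 replicate 2 (-0.24), nor against GFP without RBMXL3 replicate 2 (-0.46). TUBA1B-AS1, RPL30-AS1 and DPP10-AS1 were called against both controls in each of the 6 fits that left out 1 library.

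**Figure D2:**
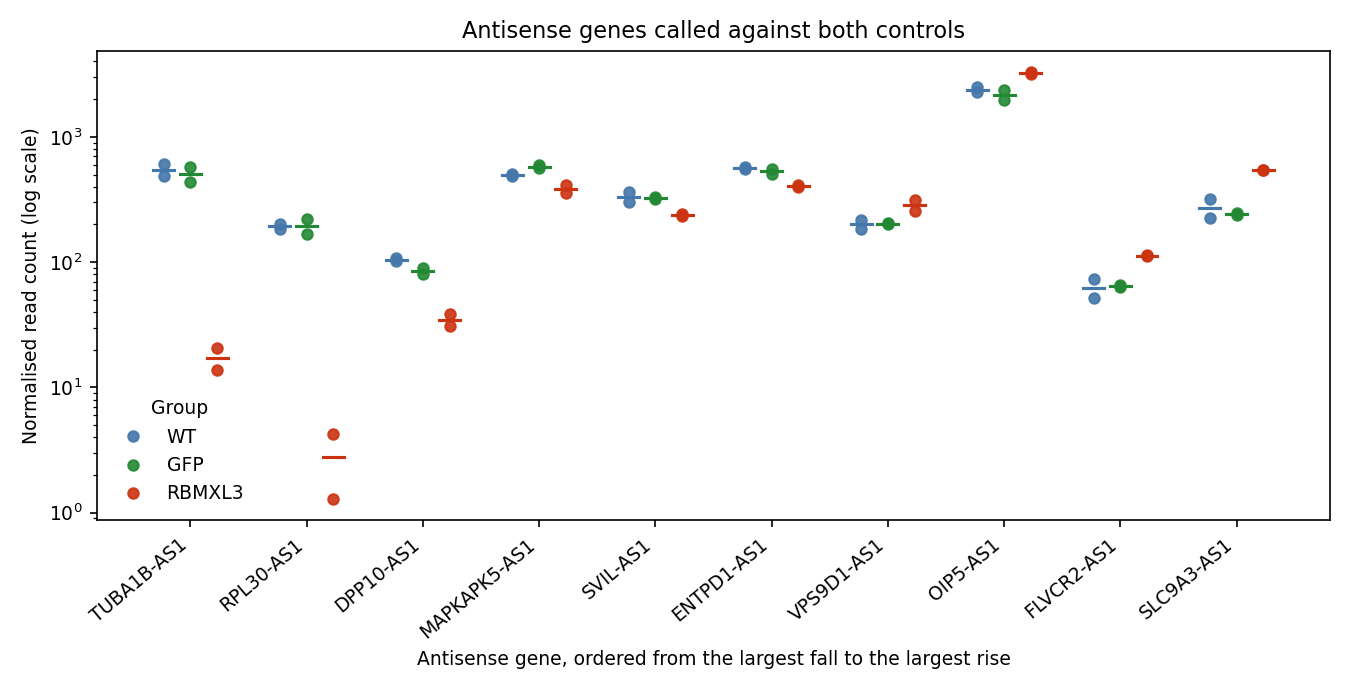
Normalised read count on a log scale for 10 members called in the same direction against both controls, with one point per library, a bar at each group mean and colours for WT, GFP and RBMXL3. The RBMXL3 points of TUBA1B-AS1 sit at 20.6 and 13.9 and those of RPL30-AS1 at 1.29 and 4.28, below all 4 controls.

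Among the rises, SLC9A3-AS1 was the largest. SLC9A3-AS1 (ENSG00000225138.8, chromosome 5, 473236 to 480884, plus strand) lies opposite SLC9A3, which encodes a sodium-hydrogen exchanger. It had 226 and 319 normalised reads in WT cells, 238 and 248 in GFP cells and 546 and 543 in RBMXL3 cells. Its log2 changes were 1.09 against GFP and 0.96 against WT (SE 0.15 each; limma adjusted p 0.00074 and 0.000749), and it was called in each of the 6 fits without 1 library. In TPM it was at 14.9 and 16.0 in RBMXL3 and between 5.39 and 9.96 in the controls, where it was not called. SLC9A3 also had its highest values in RBMXL3, with 120 and 126 normalised reads against 28.8 to 84.1 in the controls. It was called against WT (log2 change 1.18, adjusted p 0.00134) and not against GFP (0.60, adjusted p 0.053).

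OIP5-AS1 (ENSG00000247556.7, chromosome 15, 41283990 to 41309737, plus strand) had 2279 and 2484 normalised reads in WT cells, 1952 and 2383 in GFP cells and 3287 and 3188 in RBMXL3 cells. Its log2 changes were 0.58 against GFP and 0.44 against WT (SE 0.11 each; limma adjusted p 0.00373 and 0.0104). OIP5, which encodes a subunit of the complex that marks centromeres, had changes of -0.11 and 0.01 and was not called. The transcript that holds the miR-7 site was at 13.3 and 14.3 TPM in WT cells, 12.0 and 10.3 in GFP cells and 15.1 and 15.2 in RBMXL3 cells. Summed over transcripts, OIP5-AS1 was at 18.0 and 19.8, 15.2 and 14.2, and 19.6 and 19.5 TPM, where RBMXL3 and WT overlapped and the gene was not called. Its call against WT was lost without WT replicate 1 (0.38) or either RBMXL3 replicate (0.42 and 0.46), and that against GFP without RBMXL3 replicate 1 (0.56).

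FLVCR2-AS1, at the start of the transporter gene FLVCR2, had 51.7 and 73.8 normalised reads in WT cells, 63.8 and 65.7 in GFP cells and 112 and 113 in RBMXL3 cells, with log2 changes of 0.62 and 0.67. It was not called against either control without RBMXL3 replicate 1 (0.63 and 0.68) or 2 (0.62 and 0.66), nor against WT without WT replicate 1 (0.48), and DESeq2 did not call it against GFP (adjusted p 0.0518). VPS9D1-AS1, opposite VPS9D1, had 216 and 185, 201 and 203, and 312 and 257, with changes of 0.44 and 0.46 (adjusted p 0.0449 and 0.0297). Its call against GFP was lost in all 6 fits that left out 1 library, with changes from 0.31 to 0.57, and with the replicate block (adjusted p 0.0568), quantile normalization (0.0825) and DESeq2 (0.0735). Of the 4 members that rose, VPS9D1-AS1 was the one whose sense gene also rose against both controls: VPS9D1 had changes of 0.65 and 0.61, and FLVCR2 had -0.20 and -0.22 and was not called.

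Other members were called against one control only. Against GFP alone 9 members were called, 5.66% of members beside 7.12% of all genes, and against WT alone 16, 10.1% beside 16.1%. Whether the change against one control differs from that against the other is the comparison of GFP with WT. In that comparison 2 members were called, both lower in GFP, 1.26% of members, where 3.67% of all genes were called, 1.76% higher and 1.91% lower. An unadjusted p under 0.05 in limma was found in 20 of 159 members and in 3190 of the 14292 genes tested. ZNF571-AS1, named for a zinc finger gene, had 96.5 and 88.1 normalised reads in WT cells, 31.4 and 44.5 in GFP cells and 39.9 and 51.3 in RBMXL3 cells. Its means in GFP and RBMXL3, 38.0 and 45.6, were under 50, so it became a member through WT. That selection favours a lower value in GFP than in WT. Its log2 change of GFP against WT was -0.92 (limma adjusted p 0.02), and it was not called without WT replicate 1 (-0.86) or WT replicate 2 (-0.97).

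PSMA3-AS1, whose sense gene encodes a proteasome subunit, had 317 and 356 normalised reads in WT cells, 176 and 234 in GFP cells and 294 and 332 in RBMXL3 cells. It was lower in GFP than in WT by a log2 change of -0.66 (limma adjusted p 0.0364) and higher in RBMXL3 than in GFP by 0.57 (adjusted p 0.0194), while RBMXL3 and WT overlapped. The change of GFP against WT was not called without any one of WT replicate 1 (-0.74), WT replicate 2 (-0.59), GFP replicate 1 (-0.48), RBMXL3 replicate 1 (-0.66) or RBMXL3 replicate 2 (-0.66). That of RBMXL3 against GFP was not called without GFP replicate 1 (0.38), RBMXL3 replicate 1 (0.65) or RBMXL3 replicate 2 (0.48).

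Members were also grouped by the ratio of antisense to sense reads, as a description with no test. In 4 members the antisense gene had under 1% of the reads of its sense gene, and 3 of these 4 fell against both controls, TUBA1B-AS1 and RPL30-AS1 among them. The member of the 4 that was not called was BSG-AS1, opposite BSG, which encodes the membrane protein basigin. In the 58 members at 1% to 10%, 1 rose (1.72%). In the 54 at 10% to 100%, 3 fell (5.56%). In the 41 above 100%, 3 rose and 1 fell (9.76% in all). The shares in these larger groups lay under the 13.7% of all genes tested. The ratio was computed from all 6 libraries, so a fall in RBMXL3 lowers it. Computed from the 4 control libraries alone, the same 4 members were under 1%, and 59, 53 and 41 were in the other groups. The control values still enter both the ratio and the calls.

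**Figure D3:**
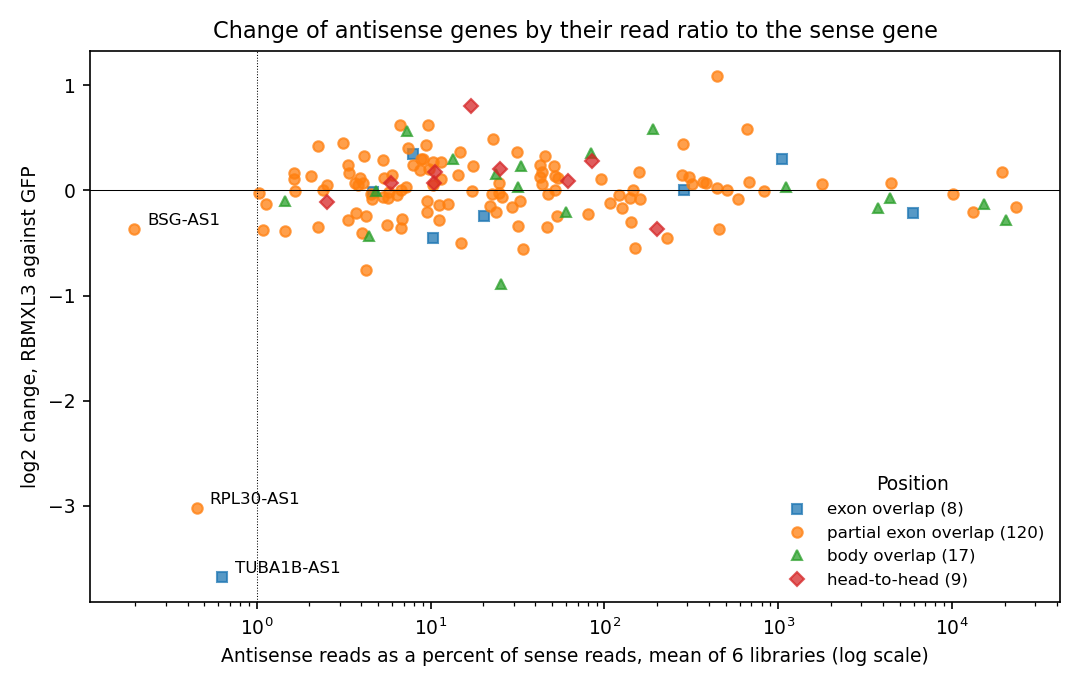
Log2 change of 154 members against GFP (vertical axis) by antisense reads as a percent of sense reads, mean of 6 libraries, on a log scale (horizontal axis), with markers for the position relative to the sense gene and a dotted line at 1%. The 3 members left of the line have changes from -0.36 to -3.68.

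The ratio was lowest in RBMXL3 in the pairs of TUBA1B-AS1, RPL30-AS1 and BSG-AS1. TUBA1B-AS1 had 1.09% and 0.873% of the reads of TUBA1B in WT cells, 0.602% and 0.976% in GFP cells and 0.0442% and 0.0288% in RBMXL3 cells. RPL30-AS1 had 0.772% and 0.699%, 0.431% and 0.695%, and 0.00531% and 0.0183% of the reads of RPL30. BSG-AS1 had 0.217% and 0.219%, 0.282% and 0.236%, and 0.161% and 0.114% of those of BSG, and was not called itself (log2 changes -0.36 and -0.13). In each of these 3 pairs both RBMXL3 libraries were below all 4 controls.

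Summed over the 4 pairs, antisense reads were 0.818% and 0.709% of sense reads in WT cells, 0.512% and 0.756% in GFP cells and 0.102% and 0.0822% in RBMXL3 cells. In the 52 pairs with exon overlap and a ratio of 1% to 10%, the sums were 3.65% and 3.64% in WT cells, 3.25% and 3.51% in GFP cells and 3.64% and 3.72% in RBMXL3 cells. Since 3 of the 4 pairs hold a member called lower, a low sum in RBMXL3 was fixed by those calls, and no contrast between the sets of pairs was tested.

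**Figure D4:**
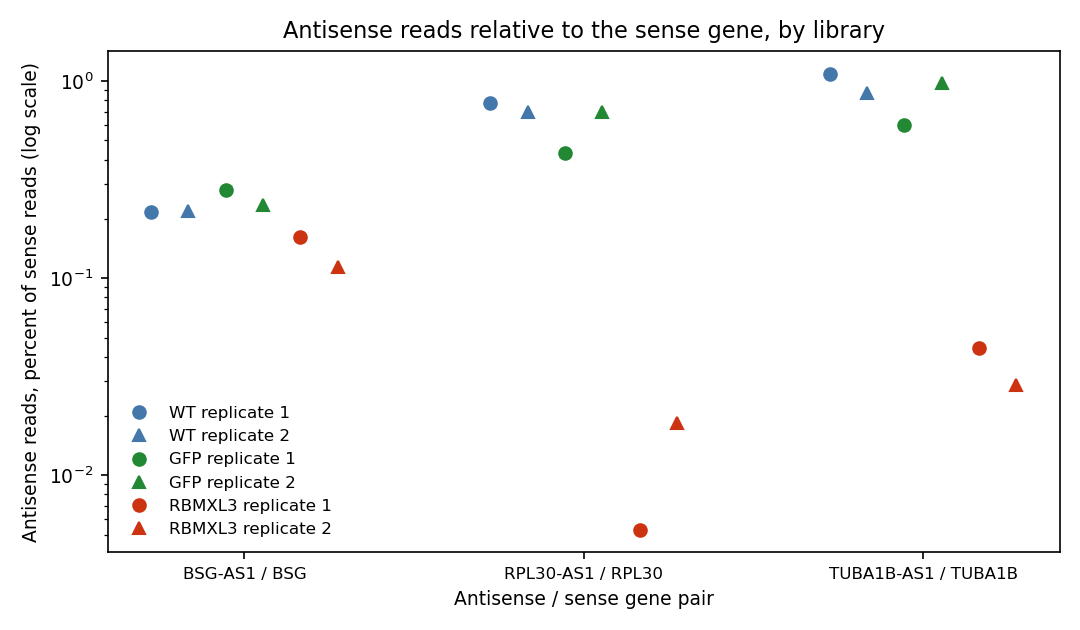
Antisense reads as a percent of sense reads, on a log scale, in each of the 6 libraries for 3 pairs under 1%, with colours for the group and shapes for the replicate number. For TUBA1B-AS1 and RPL30-AS1 the RBMXL3 libraries lie under 0.05%, and the controls between 0.431% and 1.09%.

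The sense genes of these 3 pairs had smaller differences than the antisense genes that fell. TUBA1B had a log2 change of -0.46 against GFP (limma adjusted p 0.0277) and -0.23 against WT (adjusted p 0.201), and RPL30 had -0.56 (adjusted p 0.0127) and -0.14 (adjusted p 0.458). Both calls against GFP were lost under quantile normalization, at -0.11 and -0.28, and without either RBMXL3 replicate (-0.43 and -0.49 for TUBA1B, -0.59 and -0.53 for RPL30). BSG rose against both controls, with 0.39 and 0.48. It was not called against GFP without RBMXL3 replicate 1 (0.37) or RBMXL3 replicate 2 (0.41). TUBA1B has near-identical paralogs, and counting may divide its reads among them, so its value is uncertain.

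Antisense genes under the threshold of 50 had the same ratio computed. Of 1044 with a read and a mean under 50, 132 passed the filter on low values, and a gene that passed through one group only had to differ. By limma 8 were called against both controls, 6.06% of those tested beside 13.7% of all genes. All 8 were lower, and none of the 8 reached the filter's minimum in an RBMXL3 library, so they entered the test through the controls and their direction was fixed by the filter. The values are given as a description. Of the 8, 6 had under 1% of the reads of their sense gene. Named here after their values were seen, these 6 were SLC25A5-AS1, SEMA6A-AS1, CD81-AS1, CCND2-AS1, RCC2-AS1 and HNRNPK-AS1. SEMA6A-AS1 averaged 40.1 normalised reads in WT, 35.9 in GFP and 2.47 in RBMXL3, and RCC2-AS1, all of whose exon bases lie under RCC2 exons, averaged 27.4, 32.0 and 0.535. The other two were MIF-AS1, at 41.3, 46.3 and 2.89, and SOX21-AS1, which lies head-to-head with SOX21 and averaged 37.5, 31.7 and 10.3.

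In all, 24 of the tested genes under the threshold had under 1% of sense reads. Their summed ratio was 0.230% and 0.243% in WT cells, 0.191% and 0.259% in GFP cells and 0.176% and 0.183% in RBMXL3 cells, so that the RBMXL3 libraries were the lowest by a small margin. In the 6 called lower it was between 0.117% and 0.164% in the controls and 0.0209% and 0.0262% in RBMXL3, values that the call itself selected.

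Members and their sense genes did not move together as a group. In 139 opposite-strand pairs with both genes tested, 72 (51.8%) had changes of the same sign against GFP and 73 (52.5%) against WT. Spearman's rho across pairs was 0.092 and 0.123, and Pearson's r was 0.243 and 0.167. The pairs share libraries and normalisation and are not independent replicates. Of 141 sense genes tested, 33 were called against GFP, 37 against WT and 17 against both, 12.1%, beside the 13.7% of all genes. Where both genes of a pair were called, the signs were the same in 6 of 6 pairs against GFP and in 7 of 8 against WT. The pairs against GFP include those of TUBA1B-AS1 and RPL30-AS1, whose direction was fixed by the selection. The calls of TUBA1B and RPL30 were also lost under quantile normalization, so no agreement of pairs is read from these counts.

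**Figure D5:**
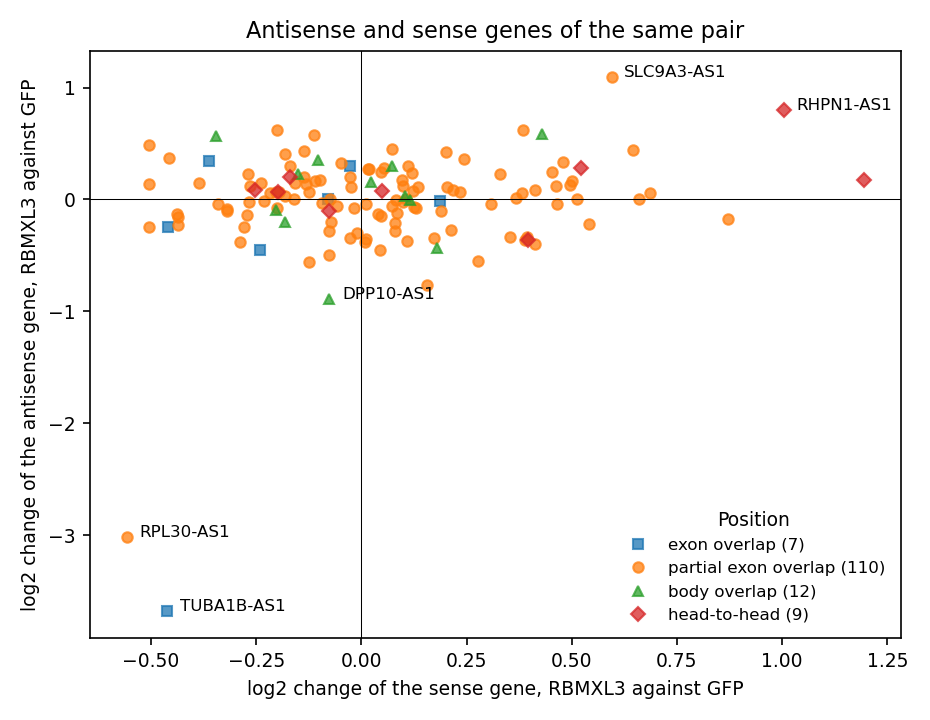
Log2 change against GFP of the antisense gene (vertical axis) by that of its sense gene (horizontal axis) for 138 opposite-strand pairs, with markers for position. The sense genes range from -0.56 to 1.19, and the points spread over all 4 quadrants.

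Some sense genes were called against both controls beside an antisense gene that was not. SCAMP1, a secretory carrier membrane protein gene, had 690 and 726 normalised reads in WT cells, 598 and 615 in GFP cells and 1425 and 1410 in RBMXL3 cells, with log2 changes of 1.19 and 0.98. SCAMP1-AS1, whose start is 76 bases from that of SCAMP1, had 94.0 and 86.4, 85.9 and 101, and 112 and 104, with changes of 0.17 and 0.21 and adjusted p-values of 0.454 and 0.318 in limma. RHPN1 had changes of 1.00 and 1.13, and the head-to-head RHPN1-AS1 rose against GFP (0.80, adjusted p 0.0121) and was not called against WT (0.36, adjusted p 0.171). NNT, the mitochondrial transhydrogenase gene, fell by 0.46 and 0.74, while NNT-AS1 had changes of 0.37 and 0.26 and was not called. These pairs were named after their values were seen, apart from NNT.

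Of 12 members that are well studied in other tissues, OIP5-AS1 was the one called against both controls. Of all genes tested, 13.7% were called against both controls and 20.9% against GFP, and nothing is read from calls among so few members. PSMA3-AS1 rose against GFP, as given above, and THUMPD3-AS1 fell against GFP. THUMPD3-AS1 had 433 and 555 normalised reads in WT cells, 557 and 569 in GFP cells and 443 and 371 in RBMXL3 cells, with changes of -0.45 (limma adjusted p 0.0357) and -0.26 (adjusted p 0.173), and RBMXL3 and WT overlapped. FGD5-AS1, MCM3AP-AS1, NNT-AS1, LOXL1-AS1, TTN-AS1, TP73-AS1, SBF2-AS1, PRKCQ-AS1 and TMPO-AS1 were not called against either control. Their changes ran from -0.22 for TTN-AS1 to 0.37 for NNT-AS1 against GFP.

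Other long noncoding RNA classes of the same minimum mean are given for comparison. Of 61 divergent transcripts (symbols ending in -DT) 1 rose and 2 fell against both controls, 4.92%. Of 90 LINC genes 3 rose and 6 fell, 10.0%. Beside these stand 6.92% of the members and 13.7% of all genes tested. Of 19 SNHG genes, which host small nucleolar RNAs, 0 were called against both controls by limma. Against GFP 2 were called, 10.5% beside 20.9% of all genes. Of 3 genes ending in -AS without a digit 1 fell against both controls. The differences between classes were not tested.

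Genes of nuclear RNA decay were followed because antisense transcripts are known substrates of that pathway. Of 26 tested genes of the nuclear exosome and its adaptors, 2 rose and 1 fell against both controls, 11.5% beside the 13.7% of all genes. ZC3H3, a zinc finger protein of polyadenylated RNA export and decay, rose by log2 changes of 0.49 and 0.48, and the cap-binding subunit NCBP1 fell by 0.29 and 0.44. PABPN1, the nuclear poly(A)-binding protein, had changes of 0.90 and 0.66. Its count is uncertain because it shares exons with a read-through gene, and its summed TPM was between 137 and 168 in all 6 libraries. Of 17 Integrator subunits, which end short nuclear transcripts, INTS7, INTS13 and NABP2 fell against both, 17.6%, and the list's median changes were -0.19 and -0.21. Of 13 genes of double-stranded RNA binding and editing, DROSHA, ILF2 and DHX9 fell against both, 23.1%, with changes against GFP of -0.38, -0.59 and -0.49. Of all genes tested, 6.86% were lower against both, and with 3 genes in each of these lists nothing is read from the shares.

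The promoters matched to the members held more CG dinucleotides than the set of all promoters. RefSeq promoters (GRCh38.p14, 250 bases before to 50 after a start) were matched for 128 of the 159 members, 154 promoters in all. Their median was 27 CG and 66.5% GC, against 14 CG and 58.67% GC in all 35116 promoters. The letters TATAAA, on either strand, stood in 3.25% of them against 11.5% of all, and TGANTCA, the core of the AP-1 motif, in 6.49% against 7.71%. Of the members called against both controls, the 4 that rose had a median of 22 CG and the 7 promoters of 5 that fell had 19. All promoters were taken whatever their expression, while the members were chosen by abundance, and no set of expressed genes was compared. A match is a description of the letters in this window only.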

How the data were processed

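The authors deposited a table of gene values and a table of transcript TPM. The gene values are a normalised signal, since every one of 145320 nonzero values in the deposited table was a whole read count over one size factor per library (tolerance 0.001). The deposited TPM cover 251955 transcripts, 80.0% of them paired with a gene in GENCODE 29, so summed TPM can miss transcripts of a gene. Per the submitters' processing notes, the tools were Trim Galore 0.6.10, STAR 2.7.11a, DESeq2 and Salmon 1.10.2, with GRCh38/hg38. The annotation release and strand setting are not given in the sources used here.

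Gene values were divided by 23.88, so that the mean column total is that of CPM, kept where at least 1 in at least 2 libraries, and tested as log2(value + 1) with limma 3.58.1 (R 4.3.3) with an intensity trend, in 1 two-sided fit of 6 libraries and 3 groups with no covariate. edgeR 4.0.16 and DESeq2 1.42.0 on recovered reads were alternatives, as were other pseudocounts, filters, quantile normalization, summed TPM, the replicate block and leaving out each library. An exact permutation test of 2 against 2 libraries cannot go below p = 0.333. The scripts were tested on simulated data. Intervals are exact Clopper-Pearson intervals at 95%. Members and lists were chosen with earlier results of these data known.

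Members named are the 6 largest falls and rises called against both controls, the 6 most abundant, up to 2 rises and 2 falls between controls, the 3 highest and 3 lowest ratios to the sense gene, the 2 on either side of the threshold and 12 studied antisense RNAs, with their sense genes and the called genes of the decay lists. A member that this rule names is not reported here, though the counts and sums include it.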

Additional observations from a re-analysis of the deposited data

How the results depend on the processing

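Counts of called members against GFP, against WT, of GFP against WT and against both controls were 20, 27, 2 and 11. They were 6, 8, 0 and 4 with no filter on low values, where more genes were tested, 5, 6, 0 and 3 in summed TPM, and 3, 4, 0 and 2 where calls also needed an absolute log2 change of at least 1. Other alternatives moved some of the 4 counts by over 1.5 times: DESeq2 gave 12 against GFP, 1 between controls and 6 against both, a mean rescaled value of at least 5, which left 69 members, gave 12 against GFP (17.4% of them, beside 12.6% of all members) and 1 between controls, a member threshold of 100, which left 81, gave 12 (14.8%) and 1, and a threshold of 20, with 287 members, gave 41 against WT (14.3%) and 17 against both (5.92%). The higher minimum values thus left fewer members, with larger shares called against GFP. Against WT and against both controls the shares were 28.986% and 13.043% at the mean rescaled value of at least 5. They were 24.691% and 9.8765% at the member threshold of 100. With the filter used above, 29.9% and 13.7% of all genes were called, close to the shares of members at the mean of at least 5. The share of all genes at that minimum is not given here. edgeR (19, 26, 2 and 10), a pseudocount of 0.1 and quantile normalization stayed within 1.5 times in all 4. Without 1 library the counts ranged from 7 to 25, 5 to 39, 0 to 10 and 5 to 12. Without RBMXL3 replicate 1 they were 7, 5, 1 and 5, without RBMXL3 replicate 2 they were 7, 12, 1 and 5, without WT replicate 1 they were 16, 6, 0 and 5, without WT replicate 2 there were 15 against WT and 0 between controls, and without GFP replicate 2 there were 10 between controls. The cause of these shifts was not tested.

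Called sense genes numbered 33, 37, 9 and 17 in the same order. They were 8, 17, 0 and 4 with no filter, 12, 18, 0 and 8 in summed TPM and 2, 3, 0 and 1 with the minimum of 1, and 3 were called between controls under quantile normalization. Without 1 library they ranged from 5 to 43, 10 to 63, 0 to 33 and 4 to 29.

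Replicate numbers did not pair the samples: same-numbered deviations correlated at -0.156 between WT and GFP, 0.034 between WT and RBMXL3 and -0.094 between GFP and RBMXL3. With the replicate block, 7 members and 11 sense genes were called against both controls and 2 sense genes between controls. A crossed pairing of the GFP numbers, chosen after seeing the data, gave 12 members against both and 17 sense genes between controls.

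Summed antisense reads of the 8 pairs with at least 50% exon overlap were 2.63% and 2.48% of sense reads in WT cells, 1.99% and 2.56% in GFP cells and 2.11% and 2.11% in RBMXL3 cells. In the same order they were 3.39%, 3.37%, 2.60%, 3.81%, 2.20% and 2.06% in summed TPM, and 4.31%, 4.05%, 3.50%, 4.40%, 4.43% and 4.33% at an overlap of 25%. They were 1.69%, 1.43%, 1.09%, 1.51%, 0.839% and 0.923% at 75%, and 13.5%, 13.8%, 15.2%, 16.6%, 16.7% and 17.3% without TUBA1B-AS1 and TUBA1B.

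In summed TPM 5 called changes turned direction: ENTPD1-AS1 against WT (0.67), EPB41L4A-AS1 against WT (-0.63), PCBP1-AS1 against WT (0.088), FAM169A against GFP (-0.43) and PABPN1 against WT (-0.041). Calls against both controls held in every alternative run for TUBA1B-AS1 and RPL30-AS1, though RPL30-AS1 was too low in TPM to be tested there. SLC9A3-AS1 lost it in summed TPM and DPP10-AS1 with no filter. Low counts limit RPL30-AS1, which had 5 reads in RBMXL3. No group has more than 2 libraries.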

Other observations

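In several members, ENTPD1-AS1 and TTN-AS1 among them, the GFP mean lay between those of WT and RBMXL3. How many members or genes had this order was not counted. Another 3 such members are named here after their values were seen. THAP7-AS1 averaged 59.9 normalised reads in WT, 91.9 in GFP and 117 in RBMXL3, and it rose against WT (log2 change 0.74; limma adjusted p 0.0073). EPB41L4A-AS1 averaged 361, 436 and 554 and rose against WT (0.59), though its summed TPM moved the other way. VIM-AS1, opposite the vimentin gene, averaged 180, 137 and 99.7 and fell against WT (-0.72; adjusted p 0.0065). In all 3 the change of GFP against WT was not called.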
